A study of Homo sapiens with 6 samples.

Results

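Genes for chromatin remodellers, histone deacetylases and demethylases, chromatin readers, TFIID subunits and Mediator subunits were followed through the knockdown of 2 RNA-processing proteins in LNCaP cells, an androgen-sensitive human prostate cancer line. The genes were taken by symbol, as those that begin with KDM, SMARC, HDAC, SIRT, INO80, CHD, ARID, BRD, PHF, PRDM, TAF or MED (all but SMARC and INO80 followed directly by a digit). This gave 60 of the 4556 genes listed in the deposited tables. Of these, 24 were among the 1944 genes with an expression value and 43 were among the 3118 genes with polyadenylation sites, where they held 66 of the 4903 sites; KDM2B, ARID5B, CHD2, INO80C, TAF9, MED13 and HDAC2, which make 7 genes, were in both. The families were of unequal size, with 13 MED genes, 10 PHF, 8 KDM, 6 HDAC, 6 TAF and 5 SMARC genes, 3 genes each of CHD and PRDM, 2 each of ARID and BRD, and 1 each of SIRT and INO80.

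The groups were siSAM68 (cells that received siRNA against Sam68, a STAR-family RNA-binding protein encoded by KHDRBS1), siXRN2 (siRNA against the nuclear exonuclease XRN2, which takes part in transcription termination) and siCTRL (a scrambled siRNA). Each group had 2 libraries, stated to be biological replicates. Cells of every group received 50 nM siRNA in a repeated transfection and were taken after 48 h, all from 1 cell line; the number of siRNA sequences per target is not stated. The assay was 3'READS, which sequences the end of polyadenylated RNA next to its tail. It so gives both a relative read number for a gene and the position of cleavage behind each read.

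Chromatin remodellers use ATP to move or evict nucleosomes, and deacetylases and demethylases remove acetyl and methyl groups from histones. TFIID binds core promoters through TBP and its associated factors (TAFs), and Mediator links sequence-specific factors, among them the androgen receptor in prostate cells, to RNA polymerase II. Where a transcript of such a gene is cleaved decides which 3' UTR it carries, and cleavage inside an intron gives a shortened transcript.

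KHDRBS1 was measured at 53.8 and 27.5 RPM (the deposited depth-normalised read numbers, here rescaled between the libraries of a group) in siSAM68, 895 and 567 RPM in siXRN2, and 601 and 741 RPM in siCTRL. It was 16.5-fold lower in siSAM68 than in siCTRL (log2 change -4.08, SE 0.28; limma adjusted p = 7.88e-07). The level of XRN2 was not analysed here. Reads in listed genes numbered 674074 and 788208 in siSAM68, 596542 and 1595879 in siXRN2, and 244689 and 447329 in siCTRL, so the control libraries were the shallowest. Of 10 luminal prostate markers, 7 were listed with expression in every library (among them KLK2, KLK3, ACPP, TMPRSS2, FOLH1 and STEAP2), and 0 of 14 stromal, endothelial, immune, basal or neuroendocrine markers were listed, which in tables that hold a selection of genes is no measure of their level. Both tables were selected by the authors, so the shares of called genes and sites below hold for the listed ones. In bulk RNA, a lower level in every cell and fewer cells of a kind cannot be told apart.

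The 3' ends at which the site results below turn are shown for 4 genes: INO80C, TAF9 and HDAC5, whose pairs of 3' UTR sites were called, and HDAC2, which was called in expression and has a first and a last site. They are 30 bases of the RNA-like strand that end at the site, with the polyadenylation signal in capitals. The sequences are from GENCODE 29 transcripts on GRCh38 and were found by the spacing of the deposited hg19 positions and by the deposited signals, with no conversion of coordinates. INO80C, whose sites lie 48 bases apart, is at chr18:35468381-35468410 and chr18:35468333-35468362, TAF9 (127 bases apart) at chr5:69364872-69364901 and chr5:69364745-69364774, HDAC5 (1541 bases apart) at chr17:44078295-44078324 and chr17:44076754-44076783, and HDAC2 (51 bases apart) at chr6:113940769-113940798 and chr6:113940718-113940747, all on the minus strand.
INO80C first site: aATTAAAttatacttcagttgttgcctcaa
INO80C last site: aagatacAATAAAaccatacttttcattta
TAF9 first site: tcattgtactgatATTAAAcatgcatgctg
TAF9 last site: gtgtaagaaaAATAAAgttgtcattcattc
HDAC5 first site: ttctATTAAAaacaaaaagtcacacattca
HDAC5 last site: ttgtgtaAATAAActtgtttctggcagtgc
HDAC2 first site: gatctATTAAAgaagtaattggcctttctg
HDAC2 last site: taattatctttATTAAAaaattgtacttgg
In INO80C, TAF9 and HDAC5 the first site carries ATTAAA and the last site the canonical AATAAA, while HDAC2 has ATTAAA at both. The pairs of MED23 and PHF21A were also called and are not shown. Their deposited signals differ, with another signal at both sites of MED23. PHF21A has another signal at its first site and ATTAAA at its distal site. By the deposited annotation, 50% of the 66 sites of these genes carry AATAAA and 22.7% ATTAAA, against 53.5% and 16.8% of all 4903 sites.

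After Sam68 silencing, most of the measured genes moved, and more rose than fell. Of 24 genes, 13 rose, 5 fell and 6 did not pass the limma threshold (adjusted p under 0.05), with a median log2 change of 0.59 in siSAM68 over siCTRL. Among all 1938 genes tested, 58.8% were called, 35.3% higher and 23.4% lower, with a median log2 change of 0.16. The 24 genes were thus called in 75% of cases in a list where the background is already high, 54.2% higher and 20.8% lower. Both siSAM68 libraries lay on the same side of both siCTRL libraries in 21 of the 24 genes (87.5%), and the same held for 79.7% of all genes tested. For siXRN2 the numbers were 15 of 24 (62.5%) and 65.7% of all genes tested. Among the genes that rose were ARID5B, CHD2, HDAC1, INO80C, KDM1B, KDM2B, MED13, MED19, MED25, SMARCA5, TAF7 and TAF9. Those that fell were BRD7, MED29, PHF5A, SIRT5 and SMARCD2.

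After XRN2 silencing fewer genes passed. Of 24 genes, 5 rose (ARID5B, HDAC1, INO80C, MED19 and MED25), 4 fell (BRD7, HDAC2, MED17 and PHF5A) and 15 did not pass, where 33.3% of all genes tested were called, 21.2% higher and 12.1% lower. The median log2 change of siXRN2 over siCTRL was 0.26 for the 24 genes and 0.08 for all genes tested. Both comparisons use the same siCTRL libraries, and 7 genes were called in both. How many of all genes tested were called in both was not counted, so the 7 are not shown to exceed the background. Between siSAM68 and siXRN2 directly, limma called 0 of 24 genes, and 8 had an unadjusted p under 0.05, where 0.155% of all genes tested were called. Without siXRN2 replicate 1, 6 of the 24 (25%) were called (SMARCD2 lower, and CHD2, HDAC2, KDM3A, KDM6A and TAF7 higher in siSAM68), where 338 of all 1938 genes (17.4%) were called. With median-of-ratios scaling 1 of the 24 was called, SMARCD2, and 30 of all 1938 genes (1.55%). With all libraries, a gene that passed after one knockdown and not after the other is not shown to differ between them.

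**Figure D1:**
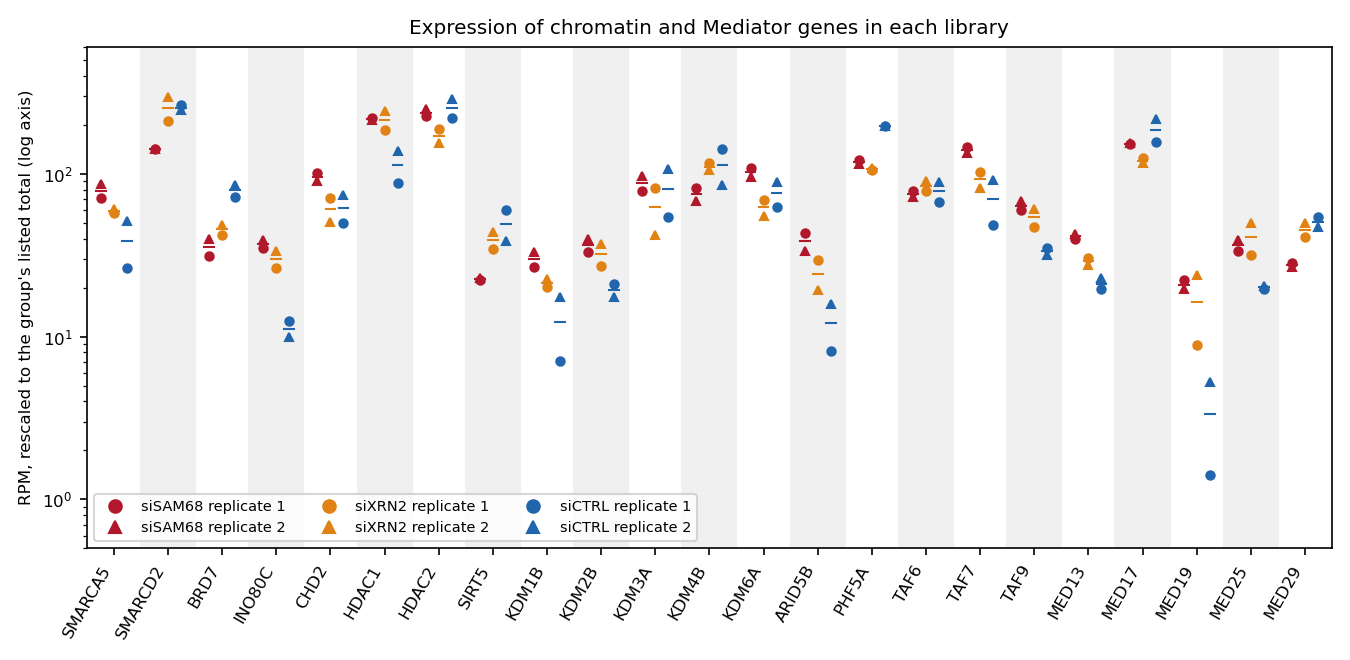
Expression of the genes described here, by role from left to right (remodellers, deacetylases, demethylases with ARID5B, the splicing subunit PHF5A, TFIID, Mediator), in RPM on a log axis. Points are libraries, with siSAM68, siXRN2 and siCTRL from left to right within each gene, and short bars are group means; MED19 has the lowest siCTRL values, 1.41 and 5.26 RPM, below all 4 knockdown libraries.

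Among the ATP-dependent remodellers, genes of different complexes went in different directions after Sam68 silencing. SMARCA5, which encodes SNF2H, the ATPase of the ISWI complexes, was at 71.4 and 86.1 RPM in siSAM68, 57.7 and 61.0 RPM in siXRN2, and 26.3 and 50.9 RPM in siCTRL. Its groups did not overlap, and it rose after siSAM68 by a log2 shift of 1.08 (SE 0.29; limma adjusted p = 0.00959), while siXRN2 over siCTRL was 0.68 (SE 0.29) and did not pass (limma adjusted p = 0.0846). SMARCD2, a BAF60 subunit of SWI/SNF (BAF) complexes, had 141 and 143 RPM in siSAM68, 210 and 294 RPM in siXRN2, and 264 and 245 RPM in siCTRL. The siSAM68 libraries lay below the others and the siXRN2 and siCTRL libraries overlapped, with a log2 shift of -0.84 in siSAM68 over siCTRL (SE 0.20; limma adjusted p = 0.00643), and siXRN2 over siCTRL was -0.03 (SE 0.20; limma adjusted p = 0.911). SMARCD2 was also the gene closest to the threshold between the knockdowns, at -0.81 for siSAM68 over siXRN2 (SE 0.20; limma adjusted p = 0.0783).

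BRD7, a bromodomain subunit of the PBAF form of SWI/SNF, was at 31.5 and 39.7 RPM in siSAM68, 42.3 and 48.8 RPM in siXRN2, and 72.4 and 85.9 RPM in siCTRL. It fell after both knockdowns, with log2 changes of -1.14 after siSAM68 (SE 0.25; limma adjusted p = 0.00504) and -0.78 after siXRN2 (SE 0.25; limma adjusted p = 0.031), and all 4 knockdown libraries lay below both controls. INO80C, a subunit of the INO80 remodeller, went the other way. It was at 35.1 and 39.0 RPM in siSAM68, 26.5 and 33.4 RPM in siXRN2, and 12.4 and 9.90 RPM in siCTRL. INO80C rose 3.32-fold after siSAM68 (log2 1.65, SE 0.31; limma adjusted p = 0.00276) and 2.68-fold after siXRN2 (log2 1.34, SE 0.31; limma adjusted p = 0.0101). The control values rest on about 9 and 13 reads. Over the pooled reads, the ratio to siCTRL was 3.36 in siSAM68 (95% exact interval 2.14 to 5.51) and 2.88 in siXRN2 (1.85 to 4.71), for counting error only.

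CHD2, a chromodomain helicase, was at 101 and 90.2 RPM in siSAM68, 70.6 and 50.4 RPM in siXRN2, and 50.1 and 73.8 RPM in siCTRL. It rose after siSAM68 by a small margin (log2 0.64, SE 0.26; limma adjusted p = 0.0464), and the siXRN2 and siCTRL libraries overlapped (log2 -0.03, SE 0.26; limma adjusted p = 0.939).

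Of the class I deacetylases, HDAC1 and HDAC2 are paralogs found in the same NuRD, Sin3 and CoREST complexes; HDAC1 rose after both knockdowns and HDAC2 fell after siXRN2. HDAC1 was at 219 and 214 RPM in siSAM68, 186 and 241 RPM in siXRN2, and 87.7 and 138 RPM in siCTRL. It rose 1.92-fold after siSAM68 (log2 0.97, SE 0.23; limma adjusted p = 0.00631) and 1.89-fold after siXRN2 (log2 0.94, SE 0.23; limma adjusted p = 0.013), with all 4 knockdown libraries above both controls. HDAC2 was at 226 and 248 RPM in siSAM68, 188 and 155 RPM in siXRN2, and 220 and 287 RPM in siCTRL. The siSAM68 libraries lay within the control range (log2 -0.08, SE 0.20; limma adjusted p = 0.735), whereas HDAC2 fell after siXRN2 (log2 -0.55, SE 0.20; limma adjusted p = 0.0457). SIRT5, a mitochondrial sirtuin known mainly for removing succinyl and malonyl groups from lysines, was at 22.1 and 23.0 RPM in siSAM68, 34.5 and 44.0 RPM in siXRN2, and 59.7 and 38.8 RPM in siCTRL. It fell after siSAM68 (log2 -1.06, SE 0.29; limma adjusted p = 0.00998), and its siXRN2 values overlapped the controls (log2 -0.30, SE 0.29; limma adjusted p = 0.454).

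Of 5 KDM genes, which encode lysine demethylases, 2 rose and 3 did not pass after siSAM68, and 0 of 5 passed after siXRN2 by limma, with 2 at an unadjusted p under 0.05, where 58.8% and 33.3% of all genes tested were called. KDM1B (LSD2), a flavin-dependent demethylase of histone H3 lysine 4, was at 26.9 and 33.2 RPM in siSAM68, 20.2 and 22.7 RPM in siXRN2, and 7.07 and 17.5 RPM in siCTRL, a log2 shift of 1.34 after siSAM68 (SE 0.38; limma adjusted p = 0.0114). KDM2B, which recruits a variant Polycomb complex to CpG islands, was at 33.0 and 39.7 RPM in siSAM68, 27.2 and 37.0 RPM in siXRN2, and 20.9 and 17.5 RPM in siCTRL, a log2 shift of 0.89 after siSAM68 (SE 0.30; limma adjusted p = 0.022). For both genes the siXRN2 libraries also lay above the controls, with limma adjusted p = 0.0891 for KDM1B and 0.0807 for KDM2B. The siCTRL values of KDM1B rest on about 5 and 23 reads, and its change after siSAM68 was 0.74 without siCTRL replicate 1 (limma adjusted p = 0.0942) and 1.94 without siCTRL replicate 2 (limma adjusted p = 0.00476). KDM3A, a demethylase of histone H3 lysine 9 known as a coactivator of the androgen receptor, overlapped between all groups, with 78.5 and 97.2 RPM in siSAM68, 82.0 and 42.3 RPM in siXRN2, and 54.3 and 107 RPM in siCTRL. KDM4B, another coactivator of that receptor, was at 81.6 and 68.5 RPM in siSAM68, 116 and 105 RPM in siXRN2, and 142 and 85.2 RPM in siCTRL (limma adjusted p = 0.0703 after siSAM68). KDM6A (UTX), the demethylase of histone H3 lysine 27, was at 108 and 95.5 RPM in siSAM68, 69.1 and 55.2 RPM in siXRN2, and 62.5 and 89.0 RPM in siCTRL (limma adjusted p = 0.134 after siSAM68).

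ARID5B, an AT-rich interaction domain protein that works with the demethylase PHF2, was at 43.4 and 33.6 RPM in siSAM68, 29.4 and 19.2 RPM in siXRN2, and 8.20 and 15.9 RPM in siCTRL. The groups were fully separated, in the order siSAM68, siXRN2, siCTRL. It rose by a log2 shift of 1.65 after siSAM68 (SE 0.36; limma adjusted p = 0.00494) and 0.99 after siXRN2 (SE 0.36; limma adjusted p = 0.0483), a call close to the threshold. The siCTRL values rest on about 6 and 21 reads.

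PHF5A carries a PHD-finger name but is known as a core subunit of the SF3b part of the U2 snRNP, a splicing complex. It was at 122 and 114 RPM in siSAM68, 106 and 108 RPM in siXRN2, and 197 and 195 RPM in siCTRL. All 4 knockdown libraries lay well below the controls, with log2 changes of -0.73 after siSAM68 (SE 0.19; limma adjusted p = 0.00818) and -0.87 after siXRN2 (SE 0.19; limma adjusted p = 0.00921).

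**Figure D2:**
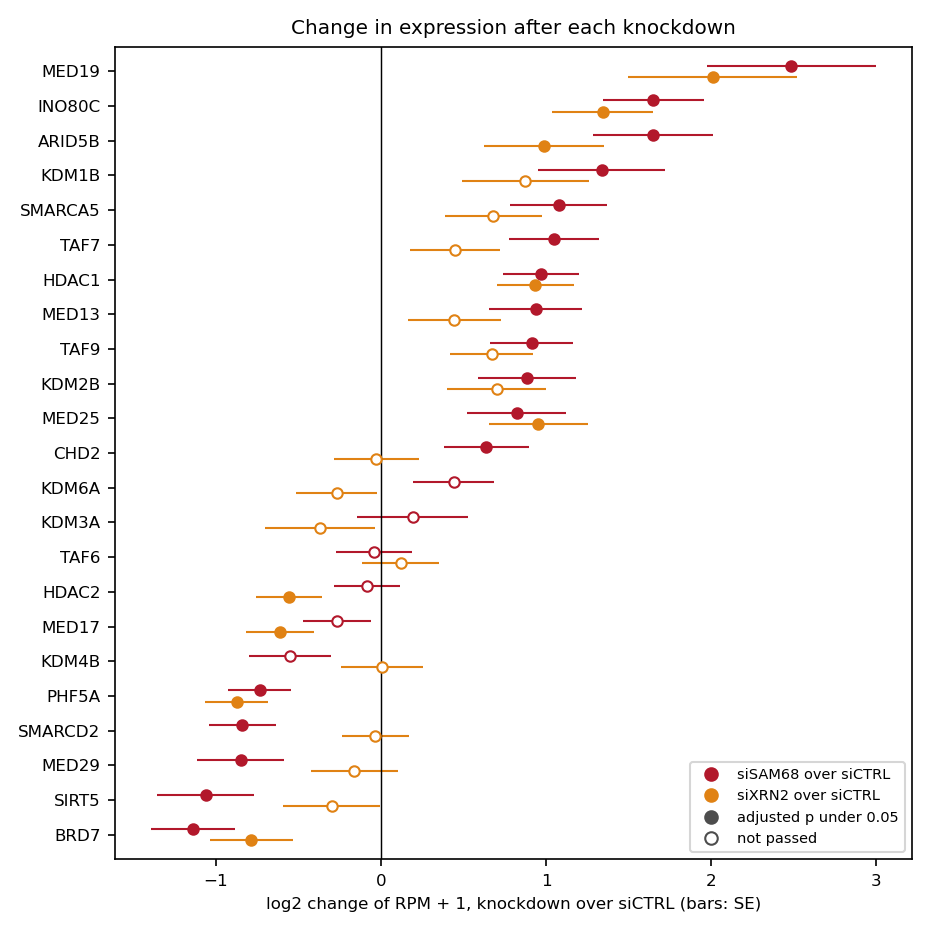
Log2 change of RPM + 1 for the same genes in siSAM68 over siCTRL and siXRN2 over siCTRL, with the SE of the limma fit as bars, ordered by the siSAM68 value. Filled points passed a limma adjusted p under 0.05; values for siSAM68 run from 2.48 (MED19) to -1.14 (BRD7).

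Of 3 TFIID genes, 2 rose and 1 did not pass after siSAM68, where 58.8% of all genes tested were called. TAF7, a subunit that binds TAF1, was at 145 and 134 RPM in siSAM68, 103 and 81.7 RPM in siXRN2, and 48.6 and 92.0 RPM in siCTRL. TAF7 rose after siSAM68 by a log2 shift of 1.05 (SE 0.27; limma adjusted p = 0.00807), and its siXRN2 and siCTRL libraries overlapped. TAF9, a histone-fold subunit that TFIID shares with SAGA, was at 59.9 and 67.5 RPM in siSAM68, 47.4 and 60.6 RPM in siXRN2, and 34.8 and 31.9 RPM in siCTRL. All 4 knockdown libraries were above both controls, with log2 changes of 0.91 after siSAM68 (SE 0.25; limma adjusted p = 0.01) and 0.67 after siXRN2, which missed the threshold (SE 0.25; limma adjusted p = 0.0535). TAF6, which pairs with TAF9 through its histone fold, lay between 66.7 and 90.1 RPM in all 6 libraries and did not pass in either comparison. TAF9 overlaps AK6, and TAF7 overlaps SLC25A2, on the same strand in GENCODE 29, so their reads may be shared with these genes.

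Of 5 Mediator genes, 3 rose, 1 fell and 1 did not pass after siSAM68, and 2 rose, 1 fell and 2 did not pass after siXRN2, where 58.8% and 33.3% of all genes tested were called. MED19, a subunit of the core Mediator, was at 22.1 and 19.5 RPM in siSAM68, 8.82 and 23.9 RPM in siXRN2, and 1.41 and 5.26 RPM in siCTRL. Every knockdown library was above both controls, and the siXRN2 replicates lay far apart. Its log2 change was 2.48 after siSAM68 (SE 0.51; limma adjusted p = 0.00415) and 2.01 after siXRN2 (SE 0.51; limma adjusted p = 0.0145), on control values of about 1 and 7 reads. The size of the change depended on the library, as the siSAM68 value was 1.80 without siCTRL replicate 1 and 3.17 without siCTRL replicate 2. The siXRN2 value was 1.32 and 2.70 without these same control libraries in that order, 2.68 without siXRN2 replicate 1 and 1.34 without siXRN2 replicate 2. Over the pooled reads, the ratio to siCTRL was 5.15 in siSAM68 (95% exact interval 2.50 to 12.3) and 4.97 in siXRN2 (2.45 to 11.8). MED25, which binds activators such as nuclear receptors, was at 33.6 and 39.0 RPM in siSAM68, 31.6 and 49.9 RPM in siXRN2, and 19.5 and 20.6 RPM in siCTRL. It rose after both knockdowns, by 0.82 after siSAM68 (SE 0.30; limma adjusted p = 0.0306) and 0.95 after siXRN2 (SE 0.30; limma adjusted p = 0.0278), both as log2 changes.

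MED13, the subunit that joins the CDK8 kinase module to Mediator, was at 39.7 and 42.9 RPM in siSAM68, 30.5 and 27.6 RPM in siXRN2, and 19.5 and 22.7 RPM in siCTRL. The groups were fully separated, and the rise passed after siSAM68 (log2 0.94, SE 0.28; limma adjusted p = 0.0136) and not after siXRN2 (log2 0.44, SE 0.28; limma adjusted p = 0.233). MED17, the scaffold subunit of the head module, was at 151 and 154 RPM in siSAM68, 124 and 117 RPM in siXRN2, and 157 and 216 RPM in siCTRL. It fell after siXRN2 (log2 -0.61, SE 0.21; limma adjusted p = 0.0369) and did not pass after siSAM68 (log2 -0.27, SE 0.21; limma adjusted p = 0.287). MED29, a tail-module subunit, was at 28.4 and 26.9 RPM in siSAM68, 40.8 and 50.0 RPM in siXRN2, and 54.3 and 47.2 RPM in siCTRL. The siXRN2 libraries overlapped the controls and the siSAM68 libraries did not, with a log2 shift of -0.85 after siSAM68 (SE 0.26; limma adjusted p = 0.0156).

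These expression calls depend on the libraries and on the scaling. ARID5B, BRD7, INO80C and MED19 kept their siSAM68 call, and INO80C and PHF5A their siXRN2 call, whichever single library of the 2 groups was left out. Without siCTRL replicate 1, the shallowest library, 12 of the 18 siSAM68 calls were lost (among them CHD2, HDAC1, KDM1B, KDM2B, MED13, MED25, MED29, SIRT5, SMARCA5, SMARCD2 and TAF7, limma adjusted p 0.0502 to 0.304). Without siSAM68 replicate 1, 9 were lost (among them CHD2, KDM2B, MED13, MED25, MED29, PHF5A, SIRT5 and TAF9, 0.0504 to 0.216), and without siSAM68 replicate 2 these 9 together with KDM1B and SMARCA5, which makes 11 (0.0566 to 0.182). KDM2B and MED25 were also lost without siCTRL replicate 2. Over all genes tested, 22.8%, 25.1%, 17.8% and 46.4% were called in these settings in the same order, against 58.8% with all libraries. For siXRN2, ARID5B, BRD7, HDAC1, HDAC2, MED19 and MED25 were lost without siCTRL replicate 1 (limma adjusted p 0.0589 to 0.293), BRD7, HDAC2, MED17 and MED25 without siCTRL replicate 2, ARID5B and BRD7 without siXRN2 replicate 1, and HDAC2, MED17, MED19 and MED25 without siXRN2 replicate 2. Without the rescaling of libraries within each group, limma called 0 of 24 genes in either comparison, with 3 (siSAM68) and 1 (siXRN2) at an unadjusted p under 0.05. With median-of-ratios scaling, CHD2 and MED25 lost their siSAM68 call and ARID5B its siXRN2 call. Without a mean-variance trend CHD2 (siSAM68) and ARID5B, HDAC2 and MED17 (siXRN2) lost it, as did CHD2 with upper-quartile scaling and ARID5B, HDAC2 and MED17 when siXRN2 and siCTRL were fitted alone. No called gene changed sign under the alternatives run.

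GC content of the transcripts moved with the siSAM68 change over all genes, with a median log2 change of 0.34 in the 481 genes of lowest GC content and -0.40 in the 481 of highest. Median GC content was 46.8% in the 13 genes that rose, 47.9% in the 5 that fell and 43.6% in the 6 that did not pass. The 13 genes that rose ran from 38.7% (MED13) to 65.4% (MED25). The part of GC content in each gene's change was not tested.

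Other genes of chromatin and transcription, from a list of 146 symbols outside the families above, showed calls in both directions. Of the 23 that were measured, 7 rose, 9 fell and 7 did not pass after siSAM68, and 2 rose, 6 fell and 15 did not pass after siXRN2, where 58.8% and 33.3% of all genes tested were called. The median log2 change was -0.08 for siSAM68 and -0.21 for siXRN2 over siCTRL. BAZ1A (ACF1), the partner of SMARCA5 in the ACF and CHRAC complexes, rose by 1.70 after siSAM68 (SE 0.35; limma adjusted p = 0.00415). ACTL6A (BAF53A), an actin-related subunit of BAF and INO80 complexes, rose by 1.01 (SE 0.27; limma adjusted p = 0.00845), and RUVBL1, an ATPase of INO80 and related complexes, by 0.82 (SE 0.24; limma adjusted p = 0.0124). The NuRD subunits MBD3 and GATAD2A fell by 1.04 and 0.66 on the log2 scale (limma adjusted p = 0.00396 and 0.0195), while MBD2, which defines an alternative NuRD complex, rose by 0.75 (limma adjusted p = 0.0138). The Polycomb gene CBX2 rose after both knockdowns, with 0.90 after siSAM68 and 1.10 after siXRN2 (SE 0.26 for each; limma adjusted p = 0.0111 and 0.0104).

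Site usage, the percent of a gene's reads that end at a site, was listed for 66 sites of 43 genes. They comprise 22 last, 13 middle and 12 first sites of a 3' UTR with several sites, 4 single 3' UTR sites, 13 intronic sites of class Ic, 1 of class Is and 1 exonic site, as the deposited type codes were read. After siSAM68, limma called 13 of 66 sites (19.7%), 6 higher and 7 lower, where 15.3% of all 4811 sites tested were called, 9.04% higher and 6.3% lower. After siXRN2 it called 3 of 66 (4.55%), all higher, where 5.4% of all sites were called, 3.97% higher and 1.43% lower. Both knockdown libraries lay on the same side of both siCTRL libraries at 51 of the 66 sites for siSAM68 and at 50 for siXRN2, where 76.3% and 71.1% of all sites did. Between siSAM68 and siXRN2 limma called 0 of 66, with 9 at an unadjusted p under 0.05, and 0 of all sites tested. For 7 genes the expression table gives the reads behind the usage; for the other genes the depth is unknown.

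At the intronic class Ic sites, mean usage was below siCTRL at most sites after either knockdown, and the fall passed at some of them after siSAM68. Mean usage was below siCTRL at 12 of the 13 Ic sites in siSAM68, with a median difference of -13.8 percentage points, and at 12 of 13 in siXRN2, with a median of -9.74. Over all 600 Ic sites tested the medians were -4.07 and -4.18 points. The share of all Ic sites with a mean below siCTRL was not counted, but medians below 0 put most of them there. Some of the 12 differences were small, with overlapping libraries. They were -0.29 (siSAM68) and -1.165 (siXRN2) points for CHD9, and -1.98 and -1.97 for the CHD2 site at position 93492464. By limma, 4 of the 13 fell after siSAM68, in ARID5B, PHF10, PRDM10 and PRDM2, where 9.5% of all Ic sites fell and 9.17% rose. After siXRN2, 0 of 13 passed by limma, with 4 lower and 1 higher at an unadjusted p under 0.05, where 2.17% of all Ic sites fell and 4.33% rose.

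The Ic site of ARID5B (hg19 chromosome 10, position 63701774, plus strand, ATTAAA) took 3.57% and 2.63% of the gene's reads in siSAM68, 9.80% and 6.74% in siXRN2, and 33.3% and 19.1% in siCTRL. Groups did not overlap, and usage fell after siSAM68 (log2 change of percent + 1 of -2.69, SE 0.46; limma adjusted p = 0.0321). The control values stand for 2 of 6 and 4 of 21 reads, with exact 95% intervals of 4.3% to 77.7% and 5.4% to 41.9%. The last site of ARID5B (position 63856701, AATAAA) took 96.4% and 94.7% in siSAM68, 90.2% and 89.9% in siXRN2, and 50.0% and 76.2% in siCTRL, and did not pass (limma adjusted p = 0.0703 after siSAM68).

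PHF10 (BAF45A), a PHD-finger subunit of PBAF, has 2 listed sites on hg19 chromosome 6 that together took all of its reads. The Ic site (position 170107133) took 24.7% and 20.5% in siSAM68, 38.4% and 38.5% in siXRN2, and 41.9% and 54.6% in siCTRL. The single 3' UTR site (position 170104001) held the remainder, 75.3% and 79.5% in siSAM68, 61.6% and 61.5% in siXRN2, and 58.1% and 45.5% in siCTRL. After siSAM68 the intronic share fell (log2 -1.05, SE 0.23; limma adjusted p = 0.0451) and the 3' UTR share rose (log2 0.58, SE 0.13; limma adjusted p = 0.0484); the 2 calls are not independent, as the shares add to the whole.

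PRDM10 and PRDM2 encode PR-domain zinc finger proteins, PRDM2 (RIZ1) being a methyltransferase of histone H3 lysine 9. At the Ic site of PRDM10 at hg19 chromosome 11, position 129862073, usage was 16.4% and 22.6% in siSAM68, 20.5% and 18.3% in siXRN2, and 42.9% and 50.0% in siCTRL. All 4 knockdown libraries were below both controls, with log2 changes of -1.23 after siSAM68 (SE 0.28; limma adjusted p = 0.0477) and -1.22 after siXRN2, which did not pass (SE 0.28; limma adjusted p = 0.0678). The other Ic site of PRDM10, at position 129871289, was the exception among the 13, with 38.2% and 24.2% in siSAM68, 51.3% and 39.7% in siXRN2, and 28.6% and 11.5% in siCTRL (limma adjusted p = 0.279 after siSAM68). The Ic site of PRDM2 (hg19 chromosome 1, position 14071442) was listed at 0 in both siSAM68 libraries, at 20.0% and 3.57% in siXRN2, and at 50.0% and 33.3% in siCTRL (limma adjusted p = 0.0264 after siSAM68). No read numbers are available for PRDM10 or PRDM2, and shares such as 50.0% and 33.3% can come from few reads.

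**Figure D3:**
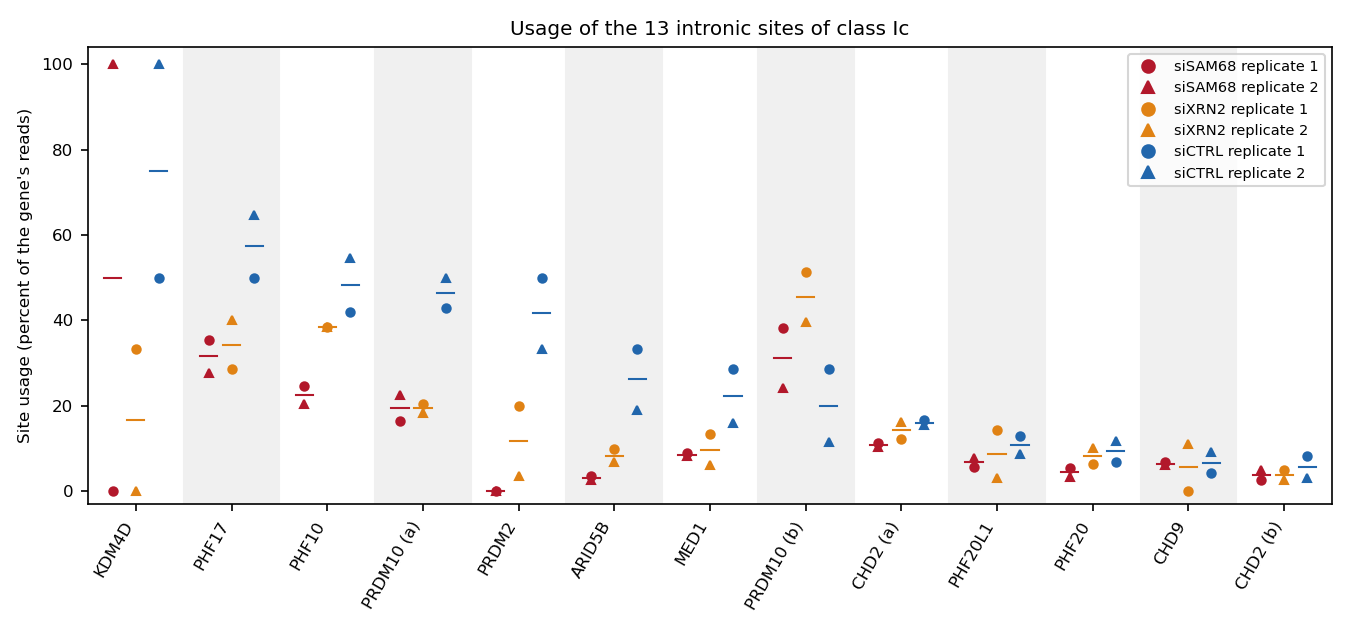
Usage of the 13 intronic class Ic sites in percent of the gene's reads, with libraries as points and group means as bars, siSAM68, siXRN2 and siCTRL from left to right. For PRDM10 and CHD2, (a) is the site used more in siCTRL and (b) the other; the siSAM68 mean lies below the siCTRL mean at all sites but PRDM10 (b), and KDM4D spans 0 to 100%.

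Outside these 4 sites no Ic site passed. PHF17 (JADE1), a scaffold of the HBO1 acetyltransferase complex, had 35.5% and 27.8% at its Ic site in siSAM68, 28.6% and 40.0% in siXRN2, and 50.0% and 64.7% in siCTRL (limma adjusted p = 0.0722 after siSAM68). MED1, the Mediator subunit that binds nuclear receptors, had 8.96% and 8.16% at its A-rich Ic site in siSAM68, 13.3% and 6.17% in siXRN2, and 28.6% and 16.1% in siCTRL (limma adjusted p = 0.114 after siSAM68). In both genes each knockdown library lay below both controls. The site of KDM4D, at 0 and 100% in siSAM68, 33.3% and 0 in siXRN2, and 50.0% and 100% in siCTRL, varied over the whole range within a group.

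At 3 sites usage was above 0 in every knockdown library and listed at 0 in both controls. How many of all sites tested have this pattern was not counted. CHD4, the NuRD ATPase, had an exonic site (hg19 chromosome 12, position 6688012) at 6.90% and 5.66% in siSAM68 and 10.9% and 28.9% in siXRN2, and it was listed at 0 in both siCTRL libraries. It passed in both comparisons, higher after each knockdown (limma adjusted p = 0.0427 after siSAM68 and 0.0327 after siXRN2). A middle site of MED13L (hg19 chromosome 12, position 116396958), a paralog of MED13 in the kinase module, was at 31.6% and 17.9% in siSAM68, 7.14% and 7.69% in siXRN2, and 0 in both siCTRL libraries (limma adjusted p = 0.0133 and 0.0363). The intronic Is site of HDAC8, a class I deacetylase of the X chromosome known to act on cohesin, was at 6.25% and 5.26% in siSAM68, 2.94% and 2.86% in siXRN2, and 0 in both siCTRL libraries. HDAC8 passed after siSAM68 (limma adjusted p = 0.0381) and not after siXRN2 (0.0816). With the lower depth of the control libraries and no read numbers for these 3 genes, a share of 0 there may lie under what could be detected. The reverse was seen for the last site of MED26, a Mediator subunit that recruits elongation factors (hg19 chromosome 19, position 16685861), with 0 in both siSAM68 libraries, 0 and 5.26% in siXRN2, and 100% and 50.0% in siCTRL (limma adjusted p = 0.0282 after siSAM68 and 0.055 after siXRN2). Read numbers are not available for MED26 either, and shares of 100% and 50.0% can come from few reads. MED26, CHD4, HDAC8, INO80C, CHD2 and MED17 overlap clone-named genes on the same strand in GENCODE 29, so some of their reads may be shared.

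At the last site of KDM5D, a demethylase of histone H3 lysine 4 (hg19 position 21867310), usage was 40.0% and 43.5% in siSAM68, 66.7% and 66.7% in siXRN2, and 66.7% and 80.0% in siCTRL. It fell after siSAM68 (log2 -0.79, SE 0.12; limma adjusted p = 0.0275), and the siXRN2 libraries were at the lower control value. The number of reads behind these shares is unknown.

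**Figure D4:**
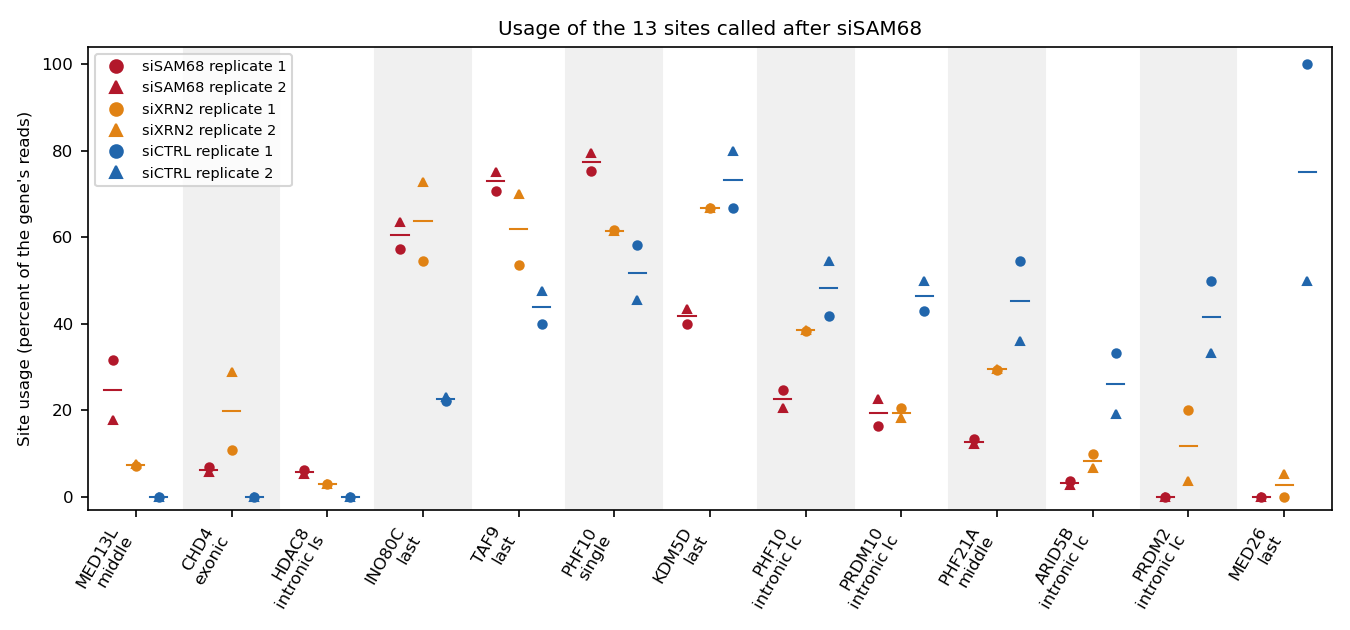
Usage of the 13 sites called after siSAM68, in percent of the gene's reads, from the largest log2 gain (left) to the largest loss (right). Points are libraries and bars are group means, siSAM68, siXRN2 and siCTRL from left to right; 6 sites rose and 7 fell, and in each the siSAM68 libraries do not overlap the siCTRL libraries.

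The choice between a proximal and a distal site of the 3' UTR was tested as the log2 ratio of distal to proximal usage for 12 genes with a pair of such sites. After siSAM68, 2 pairs moved to the distal site (INO80C and TAF9), 3 moved to the proximal site (HDAC5, MED23 and PHF21A) and 7 did not pass. Of all 1102 pairs tested, 38% were called, 22.2% to the distal and 15.8% to the proximal site, and the median change was 0.51 both for these 12 pairs and for all pairs. After siXRN2, 1 of 12 pairs passed (INO80C, to the distal site), where 15.5% of all pairs were called, 8.98% to the distal and 6.53% to the proximal site. Between siSAM68 and siXRN2 limma called 0 of 12, with 2 at an unadjusted p under 0.05, where 0.363% of all pairs were called.

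INO80C moved to the distal site after both knockdowns. Its last site (hg19 chromosome 18, position 33048297, AATAAA) took 57.4% and 63.6% in siSAM68, 54.6% and 72.9% in siXRN2, and 22.2% and 23.1% in siCTRL. Its first site, 48 bases upstream with ATTAAA, took 20.6% and 14.8% in siSAM68, 22.7% and 14.2% in siXRN2, and 33.3% and 53.9% in siCTRL. All 4 knockdown libraries were on the same side of the controls at both sites. The distal over proximal ratio rose by 2.61 after siSAM68 (SE 0.53; limma adjusted p = 0.03) and 2.63 after siXRN2 (SE 0.53; limma adjusted p = 0.0444) on the log2 scale, and the last site alone passed in both (limma adjusted p = 0.0225 and 0.0305). Behind the control values of the last site stand about 2 of 9 and 3 of 13 reads, with exact 95% intervals of 2.8% to 60.0% and 5.0% to 53.8%; those of siSAM68 are 44.8% to 69.3% and 52.7% to 73.6%.

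TAF9 has the same order of signals, ATTAAA at the first and AATAAA at the last site. The last site (hg19 chromosome 5, position 68660570) took 70.7% and 75.2% in siSAM68, 53.7% and 70.1% in siXRN2, and 40.0% and 47.6% in siCTRL, and the first site (position 68660697) 20.7% and 20.3% in siSAM68, 34.2% and 22.1% in siXRN2, and 48.0% and 35.7% in siCTRL. The ratio rose by 1.71 on the log2 scale after siSAM68 (SE 0.49; limma adjusted p = 0.048), as did the last site's usage (limma adjusted p = 0.048), and the change of 1.06 after siXRN2 did not pass (SE 0.49; limma adjusted p = 0.139). TAF9 had about 116 and 153 reads in siSAM68 and 25 and 42 in siCTRL. INO80C and TAF9 thus had both a higher expression and a higher share of their last site after siSAM68. How many of all genes had both was not counted. MED13 rose in expression after siSAM68 (log2 0.94) with a ratio change of -3.82, which did not pass. HDAC2 passed in neither after siSAM68, with log2 changes of -0.08 in expression and 0.93 in the ratio.

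HDAC5, a class IIa deacetylase that shuttles between nucleus and cytoplasm, carries the same order of signals and moved the other way. Its last site (hg19 chromosome 17, position 42154121) took 27.8% and 10.7% in siSAM68, 17.7% and 25.4% in siXRN2, and 60.0% and 87.5% in siCTRL, and its first site (position 42155662) 55.6% and 75% in siSAM68, 58.8% and 52.5% in siXRN2, and 40.0% and 12.5% in siCTRL. The log2 ratio changed by -3.48 after siSAM68 (SE 0.94; limma adjusted p = 0.0432) and by -2.99 after siXRN2, which did not pass (SE 0.94; limma adjusted p = 0.078). No read numbers are available for HDAC5, and control shares such as 87.5% and 12.5% can come from few reads. PHF21A (BHC80), the CoREST-complex reader of unmethylated histone H3 lysine 4, also moved to its proximal site after siSAM68 (-2.87, SE 0.62; limma adjusted p = 0.0338). Without siCTRL replicate 1 and siCTRL replicate 2 in turn, the siSAM68 change was -4.55 and -2.41 for HDAC5 and -2.05 and -3.68 for PHF21A, and without siSAM68 replicate 1 and siSAM68 replicate 2 in turn it was -4.34 and -2.62 for HDAC5. The distal site of the PHF21A pair (hg19 chromosome 11, position 45954111, ATTAAA) took 13.3% and 12.1% in siSAM68, 29.4% and 29.6% in siXRN2, and 54.6% and 36.0% in siCTRL. The siXRN2 libraries lay between the other groups without overlap, and the usage of this site fell after siSAM68 (log2 -1.73, SE 0.30; limma adjusted p = 0.0327).

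MED23, a tail-module Mediator subunit, kept most reads at its last site (hg19 chromosome 6, position 131907891) in all libraries, with 88.9% and 87.0% in siSAM68, 92.0% and 95.9% in siXRN2, and 95.5% and 97.2% in siCTRL. The log2 ratio changed by -1.64 after siSAM68 (SE 0.46; limma adjusted p = 0.0458). HDAC2, the pair with ATTAAA at both sites, had the most reads of the genes with both measures. Its last site (hg19 chromosome 6, position 114261881) took 89.5% and 89.9% in siSAM68, 87.7% and 85.8% in siXRN2, and 81.0% and 81.8% in siCTRL, without overlap, and the log2 ratio of 0.93 for siSAM68 over siCTRL did not pass (SE 0.32; limma adjusted p = 0.0702).

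**Figure D5:**
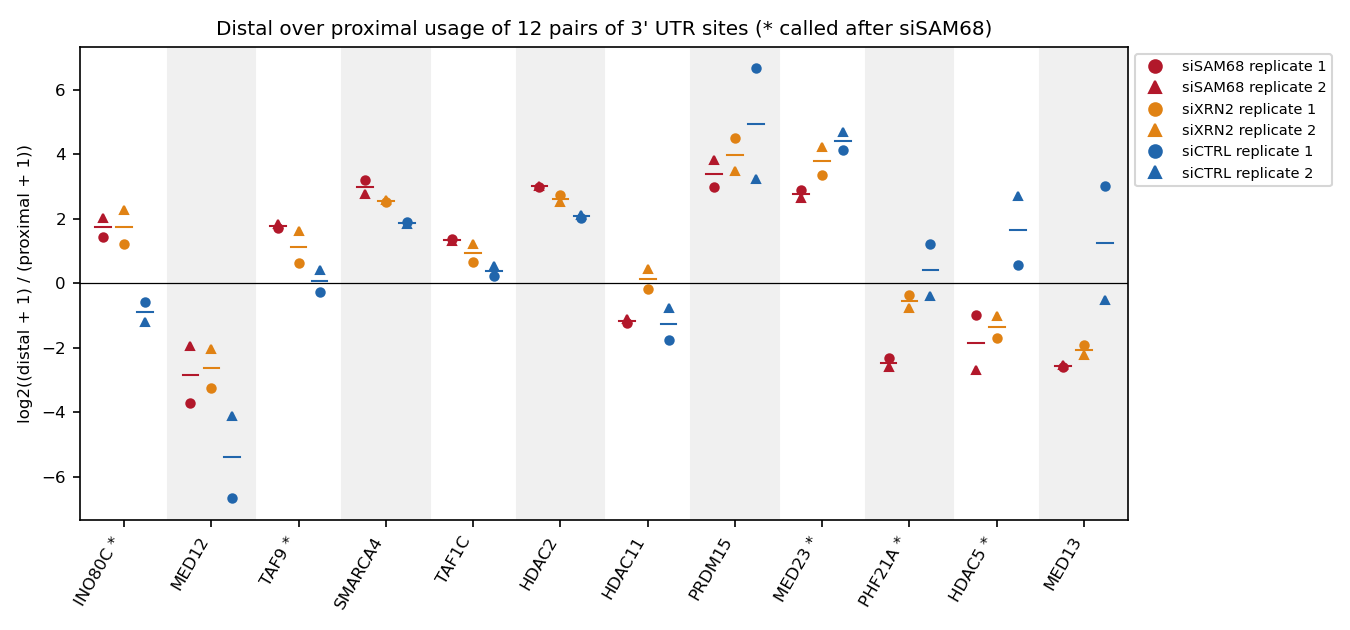
Log2 ratio of distal to proximal usage (percent + 1) for the 12 pairs of 3' UTR sites, ordered by the change in siSAM68 over siCTRL. Points are libraries and bars are group means, siSAM68, siXRN2 and siCTRL from left to right; values above 0 mean more use of the distal site, and asterisks mark the 5 pairs called after siSAM68.

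Other pairs did not pass. SMARCA4 (BRG1), the SWI/SNF ATPase, used its last site (hg19 chromosome 19, position 11172949) at 91.0% and 87.9% in siSAM68, 86.0% and 86.3% in siXRN2, and 79.4% and 78.9% in siCTRL, and the log2 ratio of siSAM68 over siCTRL was 1.11 (SE 0.35; limma adjusted p = 0.0561). TAF1C, a subunit of the SL1 factor of RNA polymerase I, used its last site at 70.8% and 70.4% in siSAM68, 60.2% and 67.3% in siXRN2, and 54.1% and 57.4% in siCTRL (ratio 0.97, SE 0.38; limma adjusted p = 0.0862). In both genes the siSAM68 libraries lay above the others without overlap. MED12, which activates the kinase of the CDK8 module, had its last site (hg19 chromosome X, position 70363953) at 6.25% and 20.0% in siSAM68, 8.70% and 19.1% in siXRN2, and 0 and 4.55% in siCTRL, with a limma adjusted p of 0.103 for siSAM68 and 0.105 for siXRN2. MED13 was the furthest below 0 in the fit, at -3.82 for siSAM68 over siCTRL (SE 1.17; limma adjusted p = 0.0541), which did not pass. The whole gene had about 14 and 30 reads in the control libraries. Of these, the distal and proximal sites of the pair had about 1 and 0 in siCTRL replicate 1, and 2 and 3 in siCTRL replicate 2.

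No site or pair call held without each of the libraries in turn. Without either siSAM68 replicate, limma called 0 of 66 sites and 0 of 12 pairs after siSAM68; at an unadjusted p under 0.05 were 23 sites and 3 pairs without replicate 1, and 20 sites and 3 pairs without replicate 2 (limma adjusted p 0.0692 to 0.167 for the 13 sites and 0.107 to 0.163 for the 5 pairs). Over all features, 0 of 4811 sites were called without either replicate, and of 1102 pairs 0 were called without replicate 1 and 34 without replicate 2. Without siCTRL replicate 1, KDM5D, MED13L and the single site of PHF10 kept their call and 10 sites lost it, and without siCTRL replicate 2, the Ic site of PHF10 and the sites of CHD4, MED26, PRDM10, PRDM2 and TAF9 lost it. The siXRN2 calls at CHD4, INO80C and MED13L were each lost without siXRN2 replicate 1, siXRN2 replicate 2 or siCTRL replicate 1, and without siCTRL replicate 2 INO80C alone kept its call. Among the pairs, PHF21A kept its call without siCTRL replicate 2, and the other 4 and the siXRN2 call of INO80C lost it whichever library was left out. Fitted on siSAM68 and siCTRL alone, 6 sites and 1 pair were called after siSAM68 (CHD4, HDAC8, INO80C, MED13L, MED26 and PRDM2, and the pair of INO80C), and on siXRN2 and siCTRL alone limma called 0 sites and 0 pairs after siXRN2. Over all features, the siSAM68 fit called 432 of 4811 sites (8.98%) and 134 of 1102 pairs (12.2%). The siXRN2 fit called 0 of all sites and 46 of all pairs (4.17%).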

How the data were processed

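Poly(A) site libraries (3'READS) of 6 LNCaP samples were deposited as a gene table and a site table. Per the submitters' processing notes, the tools were cutadapt and Bowtie2 and the genome build was hg19. Tool versions, the annotation and the rule for listing genes and sites are not stated there. Expression values are RPM, made by the authors. The smallest step is shared within a group (0.238 RPM in siSAM68, 0.157 in siXRN2 and 0.492 in siCTRL), so the deposited RPM grows with the depth of a library within its group. Each library was therefore brought to its group's summed RPM over listed genes. Dividing the deposited RPM by the step gave approximate reads; since the deposited values carry 1 decimal, which is close to the step, no count test was run. Site usage was deposited as percent of the gene's reads. For the 84 values of sites in genes with expression, usage times reads was within 0.1 read of a whole number in 78, and intervals are exact (Clopper-Pearson) and cover counting error only. The authors' deposited log2 ratios, differences and score were not used in any test; the score is not defined in the labels or files.

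Tests used limma 3.58.1 in R 4.3.3, all 3 groups in 1 fit, with Benjamini-Hochberg adjustment over all listed features: log2(RPM + 1) for 1938 genes averaging 1 RPM or more, log2(percent + 1) for 4811 sites complete in all libraries with a mean of at least 1%, both with a mean-variance trend, and log2((distal + 1) / (proximal + 1)) of the 2 most used first, middle or last sites for 1102 pairs. Changes on these scales understate those of low values. All 24 member genes and 66 member sites passed the filters. The p-values set a group difference against the spread between libraries, which was estimated over all 3 groups and moderated across features. The scripts were tested on simulated data. F, M, L and S codes were read as first, middle, last and single 3' UTR sites and Ic, Is and E as intronic and exonic, as no source defines them. Named were members past the threshold and others with their values; some items are not reported here, though they remain in the counts and fits. Members, lists and tests were chosen with earlier results of these data known. GC content came from GENCODE 29 transcripts for 99.3% of genes tested. Alternatives were other scalings, pseudocounts, filters, a fit of 2 groups, no trend, a replicate block and each library left out. Figures used matplotlib 3.10.9.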

Additional observations from a re-analysis of the deposited data

How the results depend on the processing

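No called change of sign was found under the alternatives. Called member genes ranged, with 1 library left out, from 6 to 17 for siSAM68 over siCTRL (18 in the main test), 3 to 9 for siXRN2 over siCTRL (9) and 0 to 6 for siSAM68 over siXRN2 (0; the 6, without siXRN2 replicate 1, were SMARCD2, KDM6A, TAF7, HDAC2, KDM3A and CHD2). All genes called ranged in the same settings from 344 to 900 (1139 in the main test), 199 to 714 (646) and 1 to 338 (3) of 1938, the 338 without siXRN2 replicate 1. Called sites ranged from 0 to 10 (13), 0 to 4 (3) and 0 to 0 (0), and called pairs from 0 to 3 (5), 0 to 1 (1) and 0 to 0 (0), in the same order of comparisons. Over all features these were 0 to 810 (738), 0 to 388 (260) and 0 to 0 (0) of 4811 sites, and 0 to 334 (419), 1 to 179 (171) and 0 to 0 (4) of 1102 pairs. With RPM as deposited, 0 genes were called for siSAM68 and 0 for siXRN2 over siCTRL (1 and 0 of all 1923 genes), where the libraries of a group differ by their depth; with median-of-ratios scaling 1 gene, SMARCD2, was called between siSAM68 and siXRN2 (30 of all 1938), and the median log2 change of all genes after siSAM68 was 0.00, against 0.16. With only the 2 groups compared, limma called 6 sites and 1 pair for siSAM68 (432 of all 4811 sites and 134 of all 1102 pairs). For siXRN2 it called 0 sites and 0 pairs (0 of all sites and 46 of all pairs). Usage in percentage points gave 0 sites for siXRN2 (19 of all 4811), and no mean-variance trend gave 5 (319 of all 4811). A pseudocount of 0.5% gave 2 pairs for siSAM68 (333 of all 1102) and 0 for siXRN2 (86 of all). One of 5% gave 3 for siXRN2 (306 of all). The cause of these shifts was not tested. The main fit did not pair libraries by replicate number. Deviations of same-numbered libraries correlated at 0.181, 0.076 and 0.002 over genes and 0.004, 0.04 and 0.016 over sites (siSAM68 with siXRN2, siSAM68 with siCTRL, siXRN2 with siCTRL). With 2 libraries a group, such low values cannot exclude a batch shared by same-numbered libraries. With the replicate block, limma called 18, 8 and 0 genes, 3, 0 and 0 sites, and 3, 0 and 0 pairs. Over all features it called 1142, 653 and 1 of 1938 genes. Of all 4811 sites it called 156, 0 and 0, and of all 1102 pairs 232, 92 and 0. Of the 18 siSAM68 gene calls 17 were kept and CHD2 was lost (limma adjusted p = 0.0549), and of the 9 siXRN2 calls 8 were kept and ARID5B was lost (limma adjusted p = 0.0613). Depth limits the control values most: siCTRL replicate 1 had a median of 39 reads over the 24 genes.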
